A study of Mus musculus with 2 samples.

Results

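A set of 9 genes of red blood cells and of haem synthesis were followed in the cervical loop (CL) of the mouse lower incisor, the growing end of the tooth where dental epithelial stem cells reside. They were Hba-a1, Hbb-bt and Hbb-bs (globins), Alas2 and Fech (haem synthesis), Slc4a1, Tspan33 and Epb42 (red cell membrane) and Klf1 (transcription factor). The genes were chosen by name from erythroid genes whose values on these same arrays were already known, so every value below is a description of what was measured and none is a test. Of these 9 genes among the 16593 named in the platform annotation used here, 8 had at least 1 probe and 6 were detected, against 8378 genes detected in all. The KO sample came from C57BL/6 mice of genotype MED1 fl/fl K14Cre and the WT sample from MED1 fl/fl mice without Cre, both aged 10 weeks. Cre in the KO is expressed under control of keratin 14 regulatory sequence, an epithelial gene, so that red cells and other non-epithelial cells of the tissue are not its target. The labels describe the KO tissue as the dental tissue in which hair forms and the WT tissue as its counterpart from littermates. Each sample pooled dissected tissue from 3 mice, and there was 1 column of values per genotype, called an array here. The series design states n = 3, and whether a column stands for 1 hybridization or for an average is not stated. Without replicate arrays no spread between animals was available, and no p-value between genotypes was computed.

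Haemoglobin is built from alpha and beta globin chains, each holding a haem group that binds oxygen. Haem is made in a chain of enzymes that starts in mitochondria with 5-aminolevulinate synthase, whose erythroid form is encoded by Alas2, and ends with ferrochelatase, encoded by Fech, which inserts iron. Young red cells (reticulocytes) lack a nucleus but still carry globin mRNA, so a dissected tissue with blood vessels can hold globin transcripts without holding red cell precursors. The transcription factors GATA1 and KLF1 drive this program in precursors. In RNA from a whole tissue, fewer cells of a type and less RNA per cell cannot be told apart.

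The genes did not share a direction. On the KO array Alas2, Tspan33 and Hba-a1 were lower, by 1.44-fold, 1.32-fold and 1.29-fold, Slc4a1 was 1.34-fold higher, and Hbb-bt and the brightest Fech probe were at 1.01-fold. Epb42 and Klf1 were not detected on either array, and no probe carried the symbol Hbb-bs. By count, 3 of the 6 detected genes were lower by 0.32 or more on the log2 scale, beside 11.7% of all detected genes, and 1 was higher by that much, beside 11.5%. None reached 1.5-fold in either direction, which 2.92% of all detected genes did downward and 3.02% upward. The median log2 ratio (KO minus WT) of the 6 was -0.18, beside 0.00 for all detected genes. With median scaling in place of quantile normalization the median of all detected genes was itself at -0.13, and without normalization at -0.15, and ratios under those settings are read against these shifts. Since the genes were picked with these ratios known, nothing is read from these shares.

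**Figure D1:**
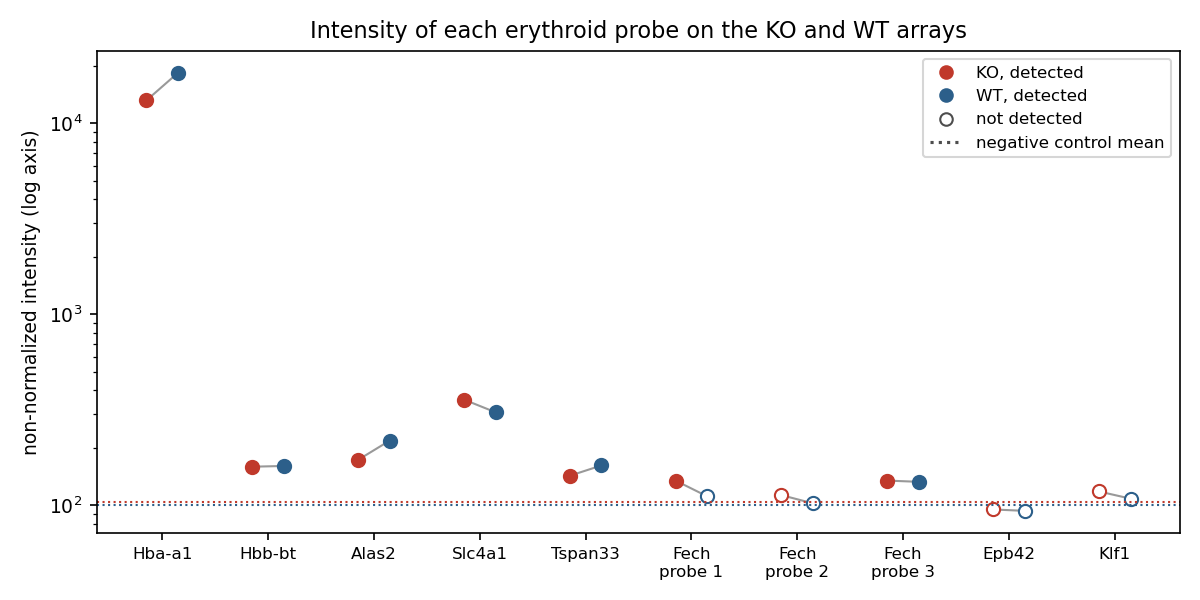
Non-normalized intensity (y, log axis) of each of the 10 probes of the erythroid genes on the KO array (red, left of each pair) and the WT array (blue, right), with filled points for a detection p under 0.01 and dotted lines at the mean level of the negative controls (103.9 on KO and 100.2 on WT). The Hba-a1 probe read 13157.9 on KO and 18394.4 on WT, while Epb42, Klf1 and the second Fech probe were not detected on either array.

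Hba-a1 encodes the alpha chain of adult haemoglobin. Its probe, ILMN_1212702, read 13157.9 on the KO array and 18394.4 on the WT array before normalization, so the KO reading was 71.5% of WT. After background correction and quantile normalization it stood at 13.74 on KO and 14.11 on WT on the log2 scale, a ratio of -0.37, or 77.5% of WT. The detection p was 0 on both arrays. The same ratio of -0.37 was found in the authors' normalized values, and -0.46 with median scaling. A ratio of this size or lower was found for 9.1% of all detected genes. As a guide to measurement error, 2 probes of the same gene were compared where both were detected on both arrays. In the 283 genes whose dimmer probe lay at 9 or more on the log2 scale, the SD per probe was 0.15 and 95% of the differences between probes were within 0.46. The Hba-a1 ratio was larger than that SD, but the guide holds no variation between animals. Hba-a2, the neighbouring duplicate of Hba-a1, had no probe of its own name here. In the RefSeq table the bases upstream of their starts were identical over 247 aligned positions. Whether the probe also reads Hba-a2 was not tested, because neither probe nor transcript sequences were used here.

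The probe named for beta globin gave a different reading. The Hbb-bt probe, ILMN_1235372, read 158.9 on KO and 160.3 on WT, against a negative control level of 103.9 on KO and 100.2 on WT. It was detected on both arrays with a detection p of 0, and stood 55.0 intensity units above the controls on KO and 60.1 on WT. Its log2 values were 6.20 on KO and 6.19 on WT, a ratio of 0.01, which was -0.08 with median scaling and -0.10 without normalization. Hence the probe showed no difference larger than the SD per probe of 0.25 found in 474 genes of that brightness. Inbred strains of mouse differ in their adult beta globin genes, and C57BL/6 carries the pair Hbb-bs and Hbb-bt where other strains carry Hbb-b1 and Hbb-b2. The probe named Hbb-b2 read 99.6 on KO and 98.3 on WT and was not detected. Hbb-bs and Hbb-b1 had no probe by symbol, although 1719 probes of the array carry no symbol here and could include one. Whether the Hbb-bt probe matches the beta globin transcripts of this strain was not tested, because probe sequences were not used here. Its level and ratio are therefore given as measured and are not read as those of beta globin. The embryonic and minor globins Hbb-y, Hbb-bh1, Hba-x, Hbq1a and Hbq1b were not detected either, and with Hbb-b2 their 7 probes read 97.3 to 109.4 on KO and 95.7 to 111.3 on WT.

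The promoters of the globins are shown because the probes of Hba-a1 and Hbb-bt gave unlike ratios and because Hbb-bs could not be measured. Each line holds the 250 bases before the start of the gene, 5′ to 3′, from RefSeq on build GRCm38.p6. Hba-a1 lies at chr11:32283422-32283671 on the plus strand, Hbb-bt at chr7:103813924-103814173 and Hbb-bs at chr7:103827929-103828178, both on the minus strand. Capitals mark matches to several short motifs, each searched on both strands. The motif bound by GATA factors was searched as AGATAA and, in a further spelling that is also known to be bound, as TGATAA. The CACCC-type motif of KLF1 and its relatives was searched as CCNCNCCC. The remaining motifs were CCAAT, which is common in promoters of many kinds, and TATAA, the core of the TATA box.
Hba-a1: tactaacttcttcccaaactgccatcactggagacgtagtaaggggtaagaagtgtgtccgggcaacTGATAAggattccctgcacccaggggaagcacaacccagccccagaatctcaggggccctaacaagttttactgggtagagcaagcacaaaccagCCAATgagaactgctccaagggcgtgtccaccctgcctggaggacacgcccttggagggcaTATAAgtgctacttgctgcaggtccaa
Hbb-bt: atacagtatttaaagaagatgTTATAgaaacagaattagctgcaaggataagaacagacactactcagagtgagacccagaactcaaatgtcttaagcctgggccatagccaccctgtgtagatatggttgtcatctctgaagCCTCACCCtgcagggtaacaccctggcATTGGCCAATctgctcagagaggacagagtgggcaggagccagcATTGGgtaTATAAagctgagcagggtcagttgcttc
Hbb-bs: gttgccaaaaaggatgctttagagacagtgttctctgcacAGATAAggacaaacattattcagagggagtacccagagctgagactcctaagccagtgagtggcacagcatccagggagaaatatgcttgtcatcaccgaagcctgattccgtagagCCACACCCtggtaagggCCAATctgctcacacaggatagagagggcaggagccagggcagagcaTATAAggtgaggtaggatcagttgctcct
A TATAA motif began 27, 28 and 29 bases before the start of Hba-a1, Hbb-bt and Hbb-bs. A CCAAT motif stood upstream of it in all of them, at 88 bases in Hba-a1, at 76 in Hbb-bs and at 80 and 75 in Hbb-bt, which held a further one at 36 bases and a further TATAA at 229. A GATA motif was found at 183 bases in Hba-a1 and at 210 in Hbb-bs and none of these letters in the Hbb-bt window, while a CACCC-type motif was found at 107 bases in Hbb-bt and at 93 in Hbb-bs. Aligned to each other, the Hbb-bt and Hbb-bs windows were identical at 70.9% of 251 positions. Of 32841 windows of this length in the table, 16.6% held the GATA letters, 45.9% the CACCC-type letters, 33.9% the CCAAT letters and 22.8% the TATAA letters. Matches can lie side by side or overlap, and a match describes letters, not a bound site.

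Alas2, the erythroid form of the first enzyme of haem synthesis, had the lowest ratio among the 6 detected genes. Its probe, ILMN_2675874, read 172.5 on KO and 217.8 on WT. These were 68.6 units above the negative controls on KO and 117.6 on WT. On the log2 scale it stood at 6.47 on KO and 7.0 on WT, a ratio of -0.53, or 69.4% of WT. Such a ratio or a lower one was found for 4.3% of detected genes. For probes of that brightness the SD per probe was 0.25 and 95% of differences between probes of a gene were within 0.69. The size depended on the background correction, since in the authors' normalized values, which keep the background, the ratio was -0.29. Alas2 lies on the X chromosome. On the same arrays Xist, the RNA of the inactive X, was 2.87-fold lower on KO, and the Y-linked Eif2s3y was detected on KO only, at least 1.97-fold higher, while 2 other Y-linked genes with a probe, Kdm5d and Uty, were not detected. No source used here gives the sex of the mice, and the part of this difference in the Alas2 ratio was not tested.

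The Alas2 promoter is shown because this gene had the lowest ratio, from chrX:150547167-150547416 on the plus strand of GRCm38.p6 with the same motifs in capitals.
Alas2: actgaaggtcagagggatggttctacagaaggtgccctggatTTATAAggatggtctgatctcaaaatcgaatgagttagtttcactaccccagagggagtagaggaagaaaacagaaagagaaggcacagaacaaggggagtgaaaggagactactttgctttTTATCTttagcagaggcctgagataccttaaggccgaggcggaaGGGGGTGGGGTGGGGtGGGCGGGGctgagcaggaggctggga
It held a GATA motif at 86 bases before the start, on the opposite strand, and 4 CACCC-type matches, also on the opposite strand, of which those at 42, 40 and 35 bases overlap. The letters TTATAA at 208 bases match TATAA on both strands, and no CCAAT was found in this window. Of the 9 genes, 7 had an entry in the promoter table.

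Fech, the enzyme that puts iron into the haem ring, had 3 probes that differed. The third probe, ILMN_2710731, was detected on both arrays and read 134.4 on KO and 132.4 on WT, with log2 values of 5.57 on KO and 5.55 on WT and a ratio of 0.02, or -0.03 with median scaling and -0.05 without normalization. The first probe, ILMN_1228534, read 134.4 on KO, where its detection p was 0.00125, and 111.1 on WT, where it was 0.0589 and the probe was not detected. That gave at least 1.24-fold higher signal on KO. This bound sets the KO value against the lowest signal of any probe detected on WT, 5.26 on the log2 scale. The second probe, ILMN_1229519, at 112.8 on KO and 102.1 on WT, was not detected on either array. Of the detected probes, the first (measured ratio 0.80) was therefore higher on KO and the third showed no difference. They do not settle whether Fech differed.

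**Figure D2:**
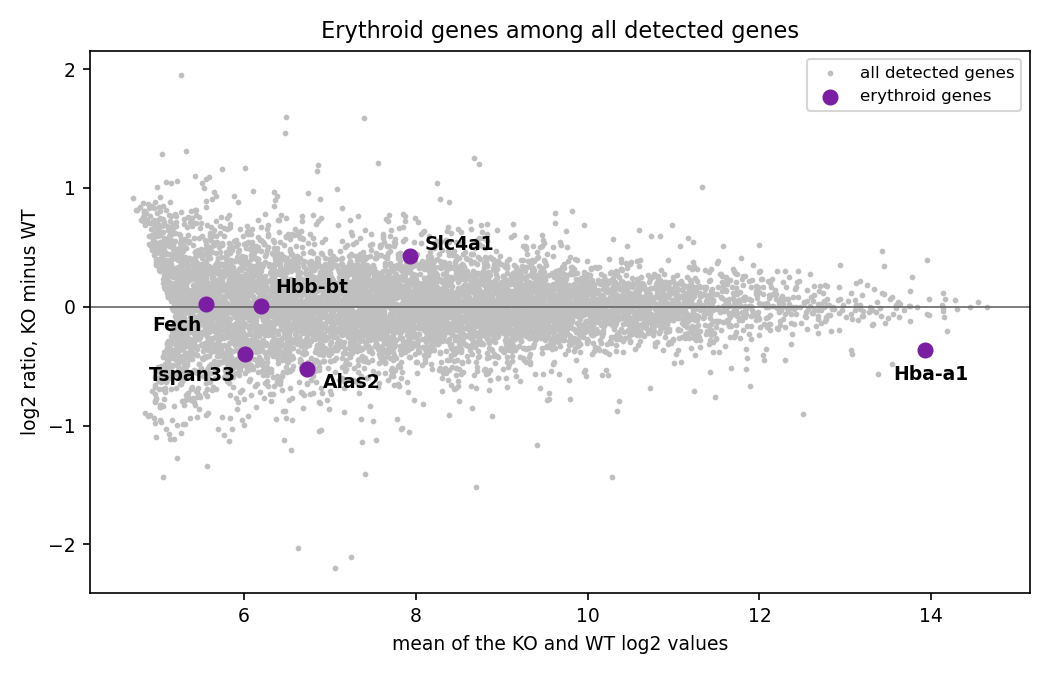
Log2 ratio of KO minus WT (y) against the mean of both log2 values (x) for the brightest detected probe of each of 8378 genes (grey), with the 6 detected erythroid genes in purple. Alas2 at -0.53, Tspan33 at -0.40 and Hba-a1 at -0.37 lie below 0, Slc4a1 at 0.42 above it, and Hbb-bt at 0.01 and Fech at 0.02 on the line.

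The membrane genes also went different ways. Slc4a1, which encodes band 3, the chloride and bicarbonate exchanger of the red cell membrane, read with its probe ILMN_1227675 an intensity of 357.0 on KO and 306.2 on WT. It stood at 8.15 on KO and 7.72 on WT on the log2 scale, a ratio of 0.42. It was thus 1.34-fold higher on the KO array, and 6.6% of detected genes had a ratio this high or higher. In 640 genes of that brightness the SD per probe was 0.19 and 95% of the differences between probes were within 0.53. Tspan33, a tetraspanin of erythroid precursors in mouse, read with its probe ILMN_1219904 an intensity of 142.4 on KO with a detection p of 0.00125 and 161.3 on WT with a p of 0. Its log2 values were 5.81 on KO and 6.21 on WT, a ratio of -0.40, and 7.7% of genes lay this low or lower. The probe was dim, only 38.5 units above the controls on KO and 61.1 on WT, and in the authors' normalized values its ratio was -0.17. The SD per probe at that brightness was 0.25 in the main values. Epb42, which encodes a protein that ties band 3 to the membrane skeleton, read with its probe ILMN_2649240 an intensity of 94.9 on KO and 93.3 on WT, below the mean of the negative controls on both arrays, and has no fold change. Klf1, the factor that activates adult beta globin, read with its probe ILMN_2665087 an intensity of 117.9 on KO and 108.1 on WT, with a detection p of 0.02632 on KO and 0.09649 on WT. It was therefore not detected at 0.01, and it passed on KO only when the limit was 0.05.

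**Figure D3:**
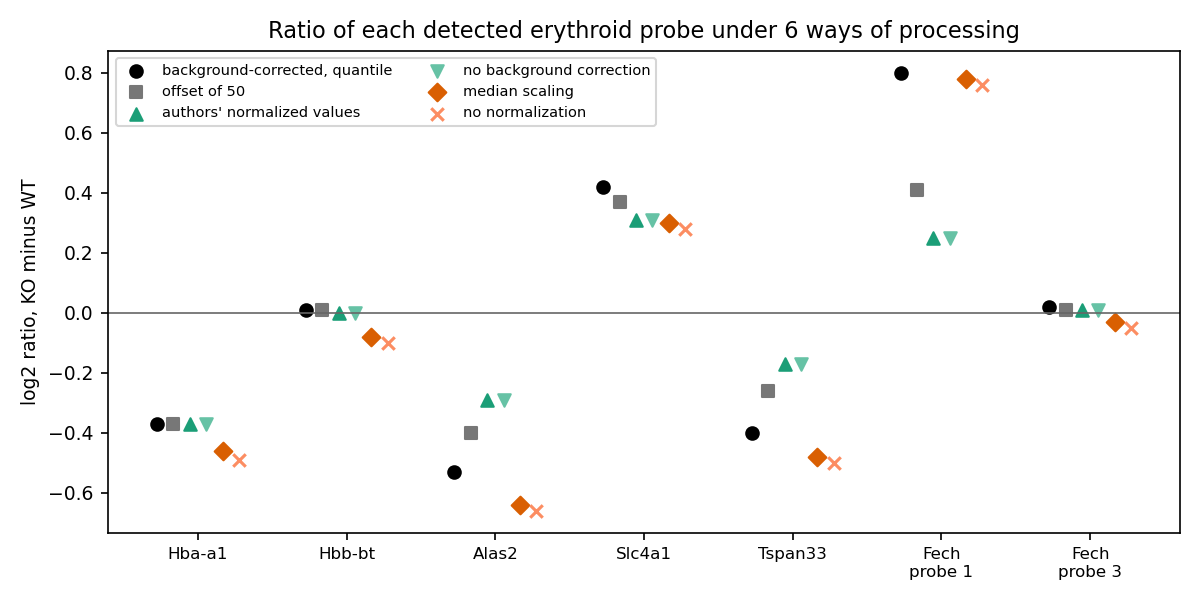
Log2 ratio of KO minus WT (y) for the 7 erythroid probes detected on at least 1 array, under 6 ways of processing (symbols). Hba-a1 kept a ratio between -0.49 and -0.37, Alas2 between -0.66 and -0.29, Tspan33 between -0.50 and -0.17 and Slc4a1 between 0.28 and 0.42, while the first Fech probe ranged from 0.25 to 0.80.

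Other genes of the same pathways were then counted from lists chosen by role. Over 86 further erythroid, haem and red cell genes, 71 had a probe by symbol and 42 were detected. Ratios above 0 were found for 20 and below 0 for 22, the median being -0.01 beside 0.00 for all detected genes. By 0.32 or more in the measured ratios, 5 of the 42 were lower (Dmtn, Epor, Car2, Zbtb7a and Hmox1), beside 11.7% of all detected genes, and 1 was higher (Hp), beside 11.5%. Zbtb7a and Hmox1 were detected on WT only, and the bound of Hmox1, 1.16-fold, does not reach that size. For Dmtn another probe had the opposite sign.

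Haem synthesis outside the erythroid genes above was slightly above 0. Apart from Alas2 and Fech, 10 of 11 enzymes and mitochondrial carriers with a probe were detected, 7 above 0 and 3 below, with a median of 0.13 and none at 0.32 or beyond in either direction. Alas1, the form of the first enzyme used outside red cells, read 1417.8 on KO and 1852.2 on WT, a ratio of -0.24. Alad, the next enzyme of the chain, was at -0.16. Uros, which closes the porphyrin ring, was at 0.26 with another probe at 0.34, and the mitochondrial transporter gene Abcb10 was at 0.30. Cpox was not detected with any of its 3 probes. With Alas2 and Fech included, the median of 12 genes was 0.09, or -0.02 with median scaling.

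Genes for haem export, scavenging and breakdown had a median of 0.17 over 7 detected genes, 4 above 0 and 3 below, and a median of -0.02 without normalization. Hp, which encodes haptoglobin, the plasma protein that captures free haemoglobin, read 192.8 on KO and 147.5 on WT, a ratio of 0.85, and another probe of it gave 0.43. Hmox1, the inducible haem oxygenase, was detected on WT only, at 110.3 on KO and 126.8 on WT, and was at least 1.16-fold lower on KO. Its constitutive relative Hmox2 was at 0.27 and the biliverdin reductase genes Blvra and Blvrb at 0.19 and 0.17.

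Of the red cell membrane genes other than those above, 15 had a probe and 6 of these were detected. Among all named genes 8378 of 16593 were detected, so the count is not read as a feature of this list. The median ratio of the 6 was -0.04, and 2 ratios lay higher than 0 and 4 lower. Dmtn, which encodes the actin-bundling protein dematin, had its brightest probe at -0.35 and another at 0.35, so it gave no direction. Mpp1 was at 0.18, and Icam4 was detected on KO only. The water channel gene Aqp1 was at -0.07 with its brightest probe and at -0.47 and -0.02 with others. Not detected were Ank1, which encodes the erythroid ankyrin, with 5 probes, and Rhag, Rhd, Kel, Tmod1, Add2, Xk, Ermap and Stom.

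Transcription factors of erythroid precursors were detected in part. Gata1, the defining factor of the lineage, was not detected with either of its 2 probes, nor were Nfe2, Gfi1b and Myb. Of 11 factors other than Klf1, 7 were detected, 2 above 0 and 5 below, with a median of -0.12. Zbtb7a was detected on WT only and was at least 1.34-fold lower on KO. Tal1 was at -0.30, at 125.6 on KO and 132.6 on WT, and Lyl1 at 0.20. Tal1, Lmo2 and Lyl1 are also expressed in endothelial cells.

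Among erythroid receptors, enzymes and late maturation genes, 12 of 19 with a probe were detected, 5 above 0 and 7 below, with a median of -0.01. This count too is not read as a feature of the list, beside 8378 of 16593 named genes. Epor, the erythropoietin receptor gene, was 1.30-fold lower on KO, at 131.6 on KO and 144.2 on WT. Car2, a carbonic anhydrase gene, was 1.28-fold lower, and Tfrc, the transferrin receptor gene that brings iron into cells, was at -0.19. Jak2, the kinase that acts below the erythropoietin receptor, was at 0.28 and Mkrn1 at 0.27. The peroxiredoxin gene Prdx2 was at 0.10. Hemgn, a gene of erythroid nuclei, Bpgm and Pklr were not detected.

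**Figure D4:**
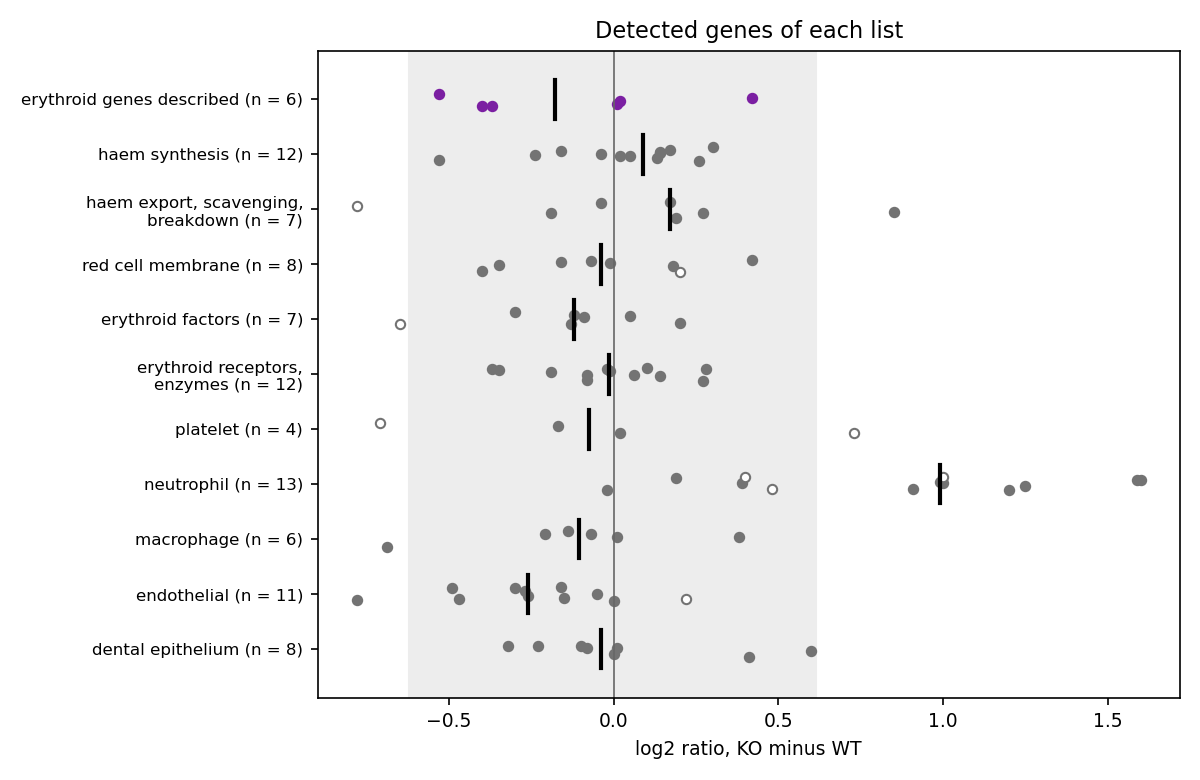
Log2 ratio of KO minus WT (x) for each detected gene of 11 lists (rows), with open points for genes detected on 1 array only, black bars at the list medians and a grey band that holds 95% of all detected genes (-0.62 to 0.61). The median was -0.18 for the erythroid genes described, 0.99 for the neutrophil list and -0.26 for the endothelial list.

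Markers of other cells that a dissected piece with blood vessels can hold moved as follows. Of 13 detected neutrophil markers, 12 were above 0. Their median was 0.99 as measured, and 0.91 once the 3 genes seen on KO alone were set to their bounds, and their summed normalized intensity was 6341 on KO and 3232 on WT. Retnlg had the highest ratio, 1.60, and Mmp9 the lowest, -0.02. Lcn2 read 366.4 on KO and 186.3 on WT. S100a8, the brightest gene of the list and so the largest part of the sum, read 3488.7 on KO and 2031.3 on WT. The paper lists S100a8 and S100a9 with epidermal differentiation genes that were higher in KO incisor tissue of another age and stage. These genes are thus not markers of neutrophils alone. Cxcr2 and Mmp8 were not detected. Of 11 detected endothelial markers, 9 were below 0, with a median of -0.26 and a sum of 5908 on KO and 7293 on WT. Vwf was 1.72-fold lower, while Cdh5 was at 0.00 and Kdr, detected on KO only, at 0.22. Platelet markers were dim or not detected, apart from Gp1bb, which read 207.9 on KO and 213.6 on WT. Of 10 genes with a probe 4 were detected, with a median of -0.08 and a sum of 243 on KO and 240 on WT. Ppbp was detected on KO only and was at least 1.40-fold higher, with another probe at 0.70, while Itga2b was detected on WT only and was at least 1.10-fold lower. Pf4 was at -0.17 and Gp1bb at 0.02, and Gp9, Gp5, Itgb3, Treml1, Clec1b and Tubb1 were not detected. Of 8 lymphocyte markers with a probe only Cd79b was detected, at 0.01. Macrophage markers had a median of -0.10 over 6 genes and a sum of 2403 on KO and 2878 on WT, with the iron exporter gene Slc40a1 1.61-fold lower and C1qa at 0.38. Slc40a1 made up most of the difference between these sums. The paper lists it among ion transport genes of dental tissue that were lower in KO, so it is not a marker of macrophages alone. The part of these cell types in the ratios of the erythroid genes was not tested.

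Dental markers were read to see whether both samples held tooth tissue. The list holds no marker of the CL stem cells, so it cannot tell the CL from other parts of the incisor. Amelx read 22412.7 on KO and 22621.8 on WT, Ambn 11929.4 on KO and 13411.6 on WT and Krt14 13241.5 on KO and 14400.6 on WT, and 8 of 9 dental markers with a probe were detected, all but Dspp. Of these 8, Sp6 was at 0.60, Mmp20 at 0.41, Klk4 at -0.32 and Krt5 at -0.23, and the list median was -0.04. Med1 read 172.9 on KO and 245.9 on WT with 1 of its 4 probes detected, a ratio of -0.80.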

How the data were processed

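Gene expression was measured in 1 KO and 1 WT sample on Illumina MouseRef-8 bead arrays, read in GenomeStudio. For 25697 probes the authors deposited an intensity on the linear scale, not normalized and, judged from its values, not background-subtracted, followed by a detection p-value. The deposited detection p-value columns name no sample, and each was assigned to the preceding intensity column (Spearman rho -0.976 within both pairs, -0.883 across). A set of intensity values normalized between arrays by the authors served as an alternative.

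Intensities were corrected with neqc of limma 3.58.1 (R 4.3.3), in which the negative control level is inferred through detection p-values, followed by an added 16, quantile normalization and log2. Dim probes depend most on this correction. A probe was detected if p was under 0.01 on either array, and the brightest probe stood for a gene. Folds of probes detected on 1 array only are bounds (floors of 5.15 on KO and 5.26 on WT). List counts use measured ratios.

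The platform annotation named 1 gene for 23978 probes and none for 1719. Of 173 list genes, 144 had a probe, matched by symbol or, outside the 9 genes, by gene ID through RefSeq of GRCm38.p6. Described in the text were the 9 genes with every probe and, from each list, some of the up to 3 highest and 3 lowest ratios and of the undetected defining genes. Others were picked after their values were seen. The genes and lists were chosen with earlier results of these data known. With 1 array per group no test was run, and precision is limited by that number. The steps were tested on simulated data, in which only probes well above background were changed, by larger folds than those of the 9 genes. The simulation therefore does not cover small ratios or dim probes.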

Additional observations from a re-analysis of the deposited data

How the results depend on the processing

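Of the erythroid genes, 3 were lower by 0.32 or more (log2) in the main values (beside 11.7% of all detected genes), 2 with an offset of 50 (6.7%) and 1 where no background was removed, in the authors' values and by plain quantile normalization (3.4% in both). At 1.5-fold it was 0 in the main values (2.9%) and 1 with median scaling (5.0%) and without normalization (5.7%, the last chosen after seeing the data), where Alas2 reached -0.64 and -0.66. The median over the detected genes was -0.18 in the main values and -0.29 to 0.01 over the alternatives. It was 0.01 with a detection p under 0.05, where Klf1 entered, and -0.01 without a detection filter. Hba-a1, Alas2, Tspan33 and Slc4a1 kept their sign in all 6 ways of processing. Those ways rework the same KO and WT columns, so a kept sign does not speak to variation between animals. Without background correction Alas2 was at -0.29, Tspan33 at -0.17 and the first Fech probe at 0.25. The neutrophil median was 0.52 in the authors' values, 0.53 without background correction and 0.71 with an offset of 50. In all, 147 of 161 alternative values, list medians included, moved by less than 1 SD per probe (0.22) or, for counts, by no more than 1.5 times. That limit of 0.22 is larger than the median of the erythroid genes itself, so its move from -0.18 to 0.01 is among the 147. The tally therefore does not show that medians near 0, or their signs, are stable. Signal over background limits the dim probes. No paired analysis was possible because the values come from no test.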
